A study of Mus musculus with 6 samples.

Results

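The genes described here are 10 heat shock chaperones of the mouse, Hspa1a, Hspa1b, Hspa8, Hsph1, Dnaja1, Dnajb1, Hsp90aa1, Hsp90ab1, Hspb1 and Hspb8. They were chosen by name from the 54418 genes of the deposited count table, and all 10 were found and were among the 21236 genes that passed the filter on low counts. Their level was compared between mammary epithelial cells isolated by FACS from 3 Glis2+/+ mice (the labels' WT control) and 3 Glis2-/- mice (the labels' Glis2 KO), all C57BL/6 females aged 4 weeks. Each mouse gave 1 library. The Glis2-/- mice carry a germline knockout of Glis2, which encodes a transcriptional repressor found at the base of the primary cilium, and the allele is not described in the sources used here. All glands were dissociated with collagenase and hyaluronidase overnight at room temperature, then treated with trypsin and dispase, stained and sorted into TRIzol, and each library was made from 1 ng of total RNA. Antibodies against TER-119, CD31, CD45, CD24 and CD49f were used in the sort, and the gate of these libraries is not given in the sources used here.

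Heat shock chaperones are proteins that bind other proteins as they fold, keep unfolded ones from clumping and help to refold or degrade them. HSP70 proteins hold unfolded stretches in a cycle of ATP hydrolysis that HSP40 proteins start and HSP110 proteins reset by nucleotide exchange, HSP90 proteins act later on kinases and steroid receptors, and small heat shock proteins hold unfolded proteins without ATP. Under heat or other stress the transcription factor HSF1 binds heat shock elements, which are alternating inverted repeats of the letters GAA and TTC, and raises the transcription of the inducible members. Some of these genes, such as Hspa8 and Hsp90ab1, are transcribed strongly in unstressed cells, and enzymatic dissociation of a tissue is known to raise heat shock transcripts in the cells released.

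The members lie apart on 6 chromosomes except Hspa1a and Hspa1b, which are neighbours on the minus strand of chromosome 17 (ENSMUSG00000091971, 34969190 to 34972156, and ENSMUSG00000090877, 34956436 to 34959238) with 9951 bases between them. All gene positions are those of GRCm38. RefSeq promoter sequences of build GRCm38.p6 were at hand for 7 of the 10 members, and Hspa8, Hsp90aa1 and Hsp90ab1 had none. The 130 bases before the first listed transcription start are printed for the 5 members whose promoter holds a pair of heat shock element units. Capitals mark the 8-base pairs, GAANNTTC or TTCNNGAA, which read the same on both strands, and each sequence is written 5′ to 3′ on the strand of its gene.
Hspa1a, chr17:34972157-34972286, minus strand: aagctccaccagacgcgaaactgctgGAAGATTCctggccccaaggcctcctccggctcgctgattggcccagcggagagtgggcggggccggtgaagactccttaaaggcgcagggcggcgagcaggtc
Hspa1b, chr17:34959239-34959368, minus strand: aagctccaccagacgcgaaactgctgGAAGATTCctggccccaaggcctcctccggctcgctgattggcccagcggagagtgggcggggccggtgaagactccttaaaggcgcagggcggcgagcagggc
Hsph1, chr5:149636337-149636466, minus strand: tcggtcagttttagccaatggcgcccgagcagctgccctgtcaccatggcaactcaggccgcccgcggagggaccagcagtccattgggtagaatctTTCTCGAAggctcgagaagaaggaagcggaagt
Dnaja1, chr4:40722338-40722467, plus strand: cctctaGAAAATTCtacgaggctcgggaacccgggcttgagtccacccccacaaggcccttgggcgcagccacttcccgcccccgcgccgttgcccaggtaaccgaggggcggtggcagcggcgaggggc
Hspb1, chr5:135887789-135887918, plus strand: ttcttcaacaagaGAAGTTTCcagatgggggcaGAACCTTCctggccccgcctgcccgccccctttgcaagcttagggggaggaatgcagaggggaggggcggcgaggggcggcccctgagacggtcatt
Over the 250 bases before the start, such a pair was found in 5 of the 7 members and in 12.8% of the 32851 promoter windows of the table. The longer form of 3 units, GAANNTTC with NNGAA after it, searched on both strands, was found in 0 of the 7 members and in 0.466% of the windows, and it contains the pair. TATAAA was found on either strand in 0 of the 7 members and in 12.4% of the windows. These matches are descriptions of letters and do not show binding.

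**Figure D1:**
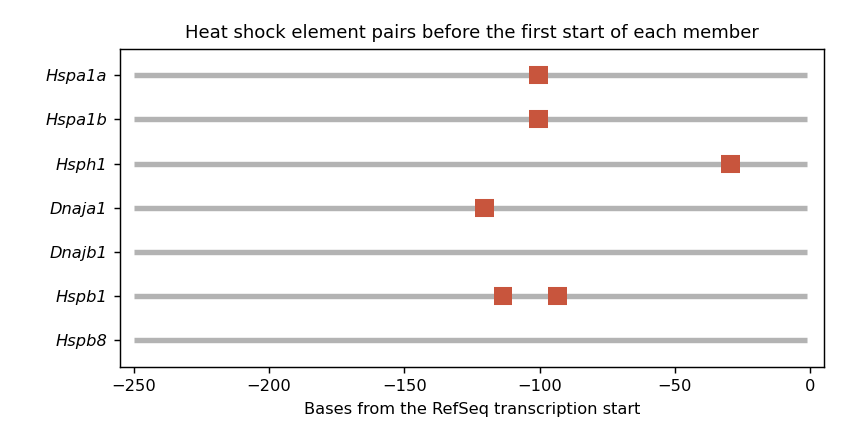
Position of 8-base pairs of heat shock element units (red) in the 250 bases before the first RefSeq start (grey) of 7 members, in bases from the start. The pair lies 104 to 97 bases before the start in both Hspa1a and Hspa1b, 33 to 26 bases before it in Hsph1 and 124 to 117 bases before it in Dnaja1, Hspb1 holds 2 pairs, and Dnajb1 and Hspb8 hold none in this window.

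The promoters of Hspa1a and Hspa1b differed at 3 of 250 positions, and the 130 bases printed differ at 1. Their transcripts are alike in part. Of the 40-base windows of the annotated transcripts, 40 bases being the read length, 61.3% of those of Hspa1a were also found in Hspa1b and 65.0% of those of Hspa1b in Hspa1a. Reads came in pairs, so where 1 read falls in a shared window the other can still tell the genes apart. The quantification had to divide the read pairs that match both genes, so the sum of both is given beside each gene.

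The libraries held between 24996524 and 31393917 counts, and the levels below are CPM, counts scaled to library size after TMM normalization, unless another scale is named. None of the 6 libraries stood apart over all genes, with a mean Pearson's r of 0.939 to 0.945 of log2 CPM with the other libraries. Glis2 itself had 19.6 to 23.2 CPM in the Glis2+/+ and 10.1 to 16.99 CPM in the Glis2-/- libraries, without overlap, with a log2 fold change of -0.57 (edgeR adjusted p = 0.906). Its TPM, rescaled to protein-coding genes, averaged 28.8 and 30.5 and overlapped, so the transcript was present in the libraries labelled Glis2-/-. Keratins of both epithelial layers were present in every library, with at least 327 CPM of the basal Krt14 and at least 1238 CPM of the luminal Krt8. Markers of other cells were present too. The summed level of 10 fibroblast markers ranged from 2356 to 7833 CPM in Glis2+/+ and from 2676 to 6022 CPM in Glis2-/- libraries, and the summed level of 8 endothelial markers ranged from 172 to 857 CPM in Glis2+/+ and from 277 to 858 CPM in Glis2-/- libraries. Those of 8 lymphocyte markers, 7 of which passed the filter on low counts, summed to 9.42 to 15.0 CPM and 17.7 to 29.2 CPM, without overlap. The general leukocyte gene Ptprc had a log2 fold change of 1.25 (edgeR adjusted p = 0.906), and 7 macrophage markers summed to 12.2 to 26.9 CPM and 18.8 to 30.6 CPM, with overlap and with 4 of the 7 above 0 and 3 below, the lowest being Adgre1 at -1.56. Their part in the values of the members was not tested. In such mixed samples, a change in the number of cells of one type and a change in RNA per cell cannot be told apart.

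No member passed the test between the genotypes. The edgeR quasi-likelihood test called 0 of the 10 members at a Benjamini-Hochberg adjusted p up to 0.05 with a log2 fold change of 0.58 or more in size, against 0% of all genes tested. DESeq2 with apeglm also called 0 of the 10, against 0.167% of the genes it tested. At an unadjusted p of at most 0.05, edgeR had 1 member, Hsph1, against 5.32% of all genes, and DESeq2 also had 1, against 5.63% of the genes it tested. The log2 fold change, Glis2-/- minus Glis2+/+, was below 0 for 5 members and above 0 for 5, with a median of -0.03 beside a median of 0.01 over all genes tested. Over 14 alternatives, 3 to 8 of the 10 members lay below 0. The members ranged from -0.65 to 0.43, and their adjusted p in edgeR from 0.906 to 0.998.

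**Figure D2:**
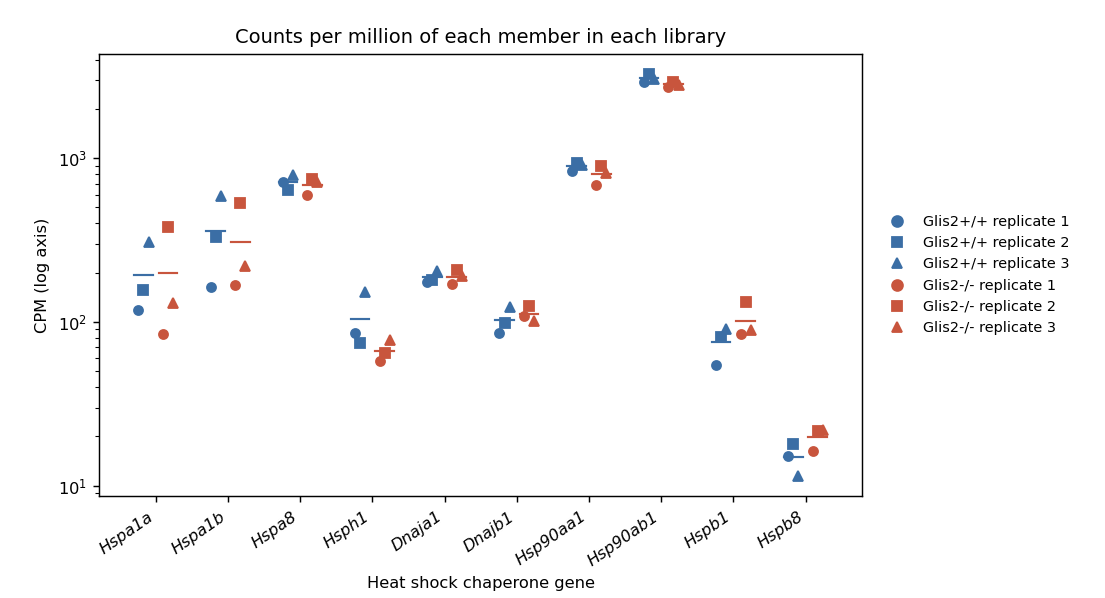
CPM on a log axis for each member in the 3 Glis2+/+ (blue) and 3 Glis2-/- libraries (red), with a bar at the mean of each genotype. Hspa1a and Hspa1b spread 4.46-fold and 3.57-fold between the highest and lowest library, and Hsp90ab1 stays between 2733 and 3269 CPM.

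The inducible HSP70 genes differed far more between single libraries than between the means of the genotypes. Mouse, handling and library preparation are mixed in the spread between libraries, and their parts were not tested. Hspa1a, which encodes an HSP70 protein made under stress, had 118, 156 and 306 CPM in the Glis2+/+ libraries and 84.8, 378 and 130 CPM in the Glis2-/- libraries. Hspa1b, which encodes a nearly identical HSP70 protein, had 164, 329 and 584 CPM in Glis2+/+ and 169, 533 and 221 CPM in Glis2-/- libraries. The same 2 libraries, Glis2+/+ replicate 3 and Glis2-/- replicate 2, were highest for both genes, and the genotypes overlapped. The highest library stood 4.46-fold above the lowest for Hspa1a, a span that lay wholly within the Glis2-/- libraries. For Hspa1b the span was 3.57-fold and lay within the Glis2+/+ libraries. Hspa1a and Hspa1b were the 2 of 10 members with a span of at least 3-fold. Such a span was found in 33.9% of all genes tested, and in 2.23% of the 5610 genes with a mean of at least 5 log2 CPM, to which both genes belong.

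Mean Hspa1a levels were 194 ± 99.3 CPM (SD, n = 3) and 198 ± 158 CPM (SD, n = 3) for Glis2+/+ and Glis2-/- mice, with a log2 fold change of 0.03 (standard error, SE, 0.54, 95% interval -1.20 to 1.26, adjusted p = 0.998 in edgeR). Hspa1b averaged 359 ± 212 CPM (SD, n = 3) and 308 ± 197 CPM (SD, n = 3), with a log2 fold change of -0.22 (SE 0.51, 95% interval -1.38 to 0.94, edgeR adjusted p = 0.980). Summed, the pair had 282, 485 and 890 CPM in Glis2+/+ and 254, 912 and 351 CPM in Glis2-/- libraries, a span of 3.60-fold that does not depend on how reads were divided between the copies. The summed log2 fold change was -0.13 (SE 0.51, 95% interval -1.30 to 1.05, edgeR adjusted p = 0.990). It was 0.40 without Glis2+/+ replicate 3 and -0.87 without Glis2-/- replicate 2. Hspa1a held between 32.2% and 42.0% of the counts of the pair in a library. The intervals of Hspa1a and of the sum, with 3 mice per genotype at this spread, leave room for a change of 2-fold in either direction.

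Hspa8, the constitutive HSP70 of the cytosol (ENSMUSG00000015656, chromosome 9, 40800984 to 40810087, plus strand), spanned 1.33-fold over the libraries. It had 719, 642 and 792 CPM in Glis2+/+ and 596, 750 and 711 CPM in Glis2-/- libraries, and the genotypes overlapped. Its log2 fold change was -0.07 (SE 0.12, 95% interval -0.33 to 0.20, edgeR adjusted p = 0.977). Gm15459, a processed pseudogene on chromosome 5 of whose 40-base windows 89.5% are also windows of Hspa8, held 154% of the counts of Hspa8 itself, so that the level of Hspa8 is uncertain. Summed with Gm15459 and the 3 other pseudogenes that share at least 10% of its windows, the log2 fold change of Hspa8 was -0.08 (SE 0.10), close to its value alone.

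Hsph1 had the largest difference between the genotypes among the members. It encodes the HSP110 protein that exchanges the nucleotide of HSP70 (ENSMUSG00000029657, chromosome 5, 149614287 to 149636376, minus strand). It had 85.6, 74.6 and 153 CPM in the Glis2+/+ libraries and 57.5, 65.1 and 77.6 CPM in the Glis2-/- libraries. The Glis2-/- libraries were lower on average, with 66.7 ± 10.2 CPM (SD, n = 3) against 104 ± 42.4 CPM (SD, n = 3), but the highest of them lay above the lowest Glis2+/+ library. The log2 fold change was -0.65 (SE 0.26, 95% interval -1.23 to -0.06), with an unadjusted p of 0.0351 and an adjusted p of 0.906 in edgeR, and an adjusted p of 0.583 in DESeq2. Glis2+/+ replicate 3 carried much of it, since without that mouse the log2 fold change was -0.26, while the other libraries left out in turn gave -0.84 to -0.55. Both this mouse and Glis2-/- replicate 2 were high for Hspa1a and Hspa1b, but Hsph1 was high only in the former.

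Per transcript length the genotypes of Hsph1 overlapped as well. Its TPM values, rescaled here to the same sum over protein-coding genes in each library (coding TPM), were 108, 117 and 235 in Glis2+/+ and 59.2, 113 and 115 in Glis2-/- libraries. The order of libraries differed from that in CPM because the length that the quantification assigned to the gene, read from the ratio of counts to TPM, differed 1.75-fold between libraries. This was more than the median of 1.26-fold over 10783 protein-coding genes with at least 100 counts in every library, and the next member, Hsp90aa1, had 1.14-fold. For Hsph1, the length was greatest in Glis2-/- replicate 1 and least in Glis2-/- replicate 2.

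The HSP40 genes encode the J-domain partners that bring unfolded proteins to HSP70. Dnaja1 (ENSMUSG00000028410, chromosome 4, 40722150 to 40737149, plus strand) had 176, 181 and 205 CPM in Glis2+/+ and 171, 206 and 191 CPM in Glis2-/- libraries, a span of 1.21-fold with full overlap. Its log2 fold change was 0.01 (SE 0.11, 95% interval -0.24 to 0.26, edgeR adjusted p = 0.996). Dnajb1, a stress-inducible HSP40 gene (ENSMUSG00000005483, chromosome 8, 83608193 to 83612653, plus strand), had 85.7, 98.0 and 123.1 CPM in Glis2+/+ and 108, 125 and 102 CPM in Glis2-/- libraries. Its log2 fold change was 0.13 (SE 0.15, 95% interval -0.22 to 0.47, edgeR adjusted p = 0.965). For both genes the highest libraries were again Glis2+/+ replicate 3 and Glis2-/- replicate 2, but with a far smaller span than for Hspa1a and Hspa1b.

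Dnaja1 shares reads with Gm15542, a processed pseudogene on chromosome 7 of whose 40-base windows 80.3% are also windows of Dnaja1. Gm15542 had 547, 455 and 399 counts in Glis2+/+ and 155, 105 and 209 counts in Glis2-/- libraries, without overlap, and held 5.78% of the counts of Dnaja1. Its log2 fold change was -1.58 (SE 0.27), with an adjusted p of 0.849 in edgeR and 3.34e-04 in DESeq2. Summed with Gm15542, Dnaja1 had a log2 fold change of -0.07 (SE 0.10). Smu1, on the other strand, overlaps Dnaja1 and had 39.9% as many counts. The library kit keeps the strand of the RNA, and the strand setting of the quantification is not given in the sources used here.

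Hsp90ab1 was the most abundant member per transcript length and the least variable. Hsp90ab1, the constitutive HSP90 of the cytosol (ENSMUSG00000023944, chromosome 17, 45567775 to 45573271, minus strand), had 2921, 3269 and 3051 CPM in Glis2+/+ and 2733, 2917 and 2816 CPM in Glis2-/- libraries. It was the 1 member of 10 whose genotypes did not overlap, with Glis2-/- lower. Of all genes tested, 11.7% did not overlap, 5.5% with Glis2-/- lower and 6.23% with Glis2-/- higher. For Hsp90ab1 the gap was between 2917 and 2921 CPM. The log2 fold change was -0.13 (SE 0.08, 95% interval -0.30 to 0.05, edgeR adjusted p = 0.932). Its within-genotype SD of 0.067 log2 CPM lay at the 2.54th percentile of all genes tested, where the median was 0.361, and the median of the 5610 genes with a mean of at least 5 log2 CPM was 0.145. Without Glis2+/+ replicate 2, the log2 fold change of Hsp90ab1 was -0.080.

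Hsp90aa1, the more stress-responsive HSP90 gene (ENSMUSG00000021270, chromosome 12, 110690605 to 110702728, minus strand), had 833, 929 and 907 CPM in Glis2+/+ and 688, 893 and 815 CPM in Glis2-/- libraries, with overlap. Its log2 fold change was -0.16 (SE 0.11, 95% interval -0.41 to 0.09, edgeR adjusted p = 0.941). Of its 40-base windows 49.4% were also found in other genes, mostly in the pseudogenes Gm12346 and Gm5844, which held 2.45% and 1.07% as many counts. Summed with both, its log2 fold change was -0.16 (SE 0.11), and without Glis2-/- replicate 1 it was -0.062 for Hsp90aa1 alone.

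The small heat shock proteins had the highest fold changes among the members. Hspb1, the gene of HSP25 in the mouse (ENSMUSG00000004951, chromosome 5, 135887919 to 135889563, plus strand), had 54.6, 81.5 and 90.7 CPM in Glis2+/+ and 84.6, 132 and 88.9 CPM in Glis2-/- libraries. Its mean was 75.6 ± 18.7 CPM (SD, n = 3) against 102 ± 26.4 CPM (SD, n = 3), with overlap of the genotypes, and its log2 fold change was 0.43 (SE 0.23, 95% interval -0.08 to 0.95, edgeR adjusted p = 0.919). It was 0.19 without Glis2-/- replicate 2 and 0.22 without Glis2+/+ replicate 1. Hsp25-ps1, a processed pseudogene that shares 50.6% of the windows of Hspb1, held 57.9% as many counts, and summed with it the log2 fold change was 0.34 (SE 0.17).

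Hspb8, which works with the co-chaperone BAG3 in the removal of unfolded proteins (ENSMUSG00000041548, chromosome 5, 116408491 to 116422864, minus strand), was the least abundant member. It had 15.3, 18.0 and 11.4 CPM in Glis2+/+ and 16.3, 21.5 and 22.0 CPM in Glis2-/- libraries, with a log2 fold change of 0.42 (SE 0.22, 95% interval -0.08 to 0.92, edgeR adjusted p = 0.919). The genotypes overlapped. Without Glis2+/+ replicate 3, its lowest library, the log2 fold change was 0.26. It shared no 40-base window with another gene. Small heat shock proteins are abundant in muscle, and basal mammary cells are contractile. All 10 basal markers had a log2 fold change above 0, where 48.4% of all genes tested lay below 0. None passed the test in edgeR or DESeq2, and 1 did in edgeR without the filter on low counts. In edgeR 6 had an unadjusted p of at most 0.05, against 5.32% of all genes tested. The summed level of these markers was 4683 to 6011 CPM in Glis2+/+ and 6398 to 7696 CPM in Glis2-/- libraries, with no marker at 0 and the lowest sum in Glis2+/+ replicate 3. Among the Glis2+/+ libraries that one was lowest for Hspb8 and highest for Hspb1. Skeletal muscle markers summed to 18.6 to 109 CPM in Glis2+/+ and 31.5 to 40.6 CPM in Glis2-/- libraries. The part of either cell type in the values of Hspb1 and Hspb8 was not tested.

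**Figure D3:**
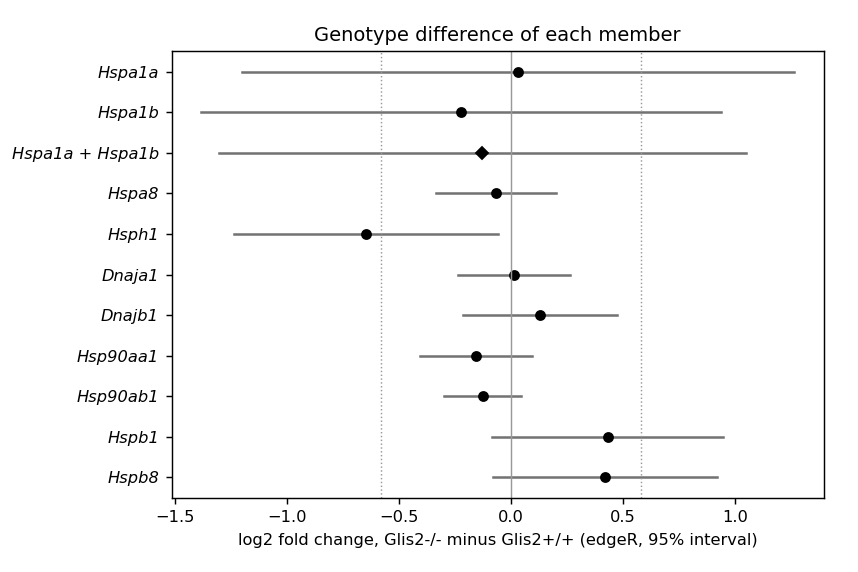
Log2 fold change (Glis2-/- minus Glis2+/+) of each member and of the summed Hspa1a and Hspa1b counts (diamond), with the 95% interval of the edgeR fit as a line and the fold threshold of 0.58 in either direction dotted. The intervals of Hspa1a, Hspa1b and their sum are the widest, those of Hsp90ab1, Hsp90aa1, Dnaja1, Dnajb1 and Hspa8 stay within the threshold, and that of Hsph1, from -1.23 to -0.06, is the 1 that leaves out 0 before adjustment.

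Compared per transcript length, in mean coding TPM over the 6 libraries, the order of levels as the reads were assigned was Hsp90ab1 (3029), Hsp90aa1 (1154), Hspa8 (850), Dnaja1 (377), Hspa1b (272), Hspb1 (266), Hspa1a (150), Hsph1 (125), Dnajb1 (82.0) and Hspb8 (23.1). The library values of Hsp90ab1 (2784 to 3265 coding TPM) did not meet those of Hsp90aa1 (965 to 1226), which overlapped those of Hspa8 (733 to 974). The order depends on how reads were divided between look-alike genes. Summed with the genes that share at least 10% of its windows, Hspa8 averaged 2243 coding TPM (1963 to 2525), above Hsp90aa1 at 1186 (997 to 1257). Hspb1 averaged 518 coding TPM (403 to 657) when summed in this way, above Dnaja1 at 401 (352 to 441), with overlap. The sum of Hspa1a and Hspa1b averaged 422 coding TPM (204 to 722), a range that takes in all values of the summed Dnaja1. The library values of Hspb8 (15.2 to 29.4) did not meet those of any other member. From Dnaja1 to Dnajb1 in that order, each member overlapped the next, with ranges of 338 to 408 for Dnaja1, 139 to 483 for Hspa1b, 171 to 384 for Hspb1, 65.6 to 282 for Hspa1a, 59.2 to 235 for Hsph1 and 68.4 to 95.03 coding TPM for Dnajb1. The members together made up 0.654% ± 0.051 (SD, n = 3) of the coding TPM in Glis2+/+ and 0.611% ± 0.063 (SD, n = 3) in Glis2-/- libraries. Hspa1a and Hspa1b held 3.76% to 10.5% of that sum, and Hsp90ab1 43.8% to 51.1%.

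Across the 6 libraries the members moved together in part. The correlations are descriptions over 6 libraries that share TMM scaling. On log2 CPM, Pearson's r was 0.95 between Hspa1a and Hspa1b, which also share reads, 0.94 between Hspa1a and Dnaja1, 0.88 between Hspb1 and Dnajb1, and 0.83 between Hsp90aa1 and Hsp90ab1. With each genotype centred on its own mean, these were 0.95, 0.95, 0.88 and 0.76. For Hspb8, r was -0.75 with Hsph1 and between -0.24 and 0.39 with the others. With the genotypes centred, r of Hspb8 was -0.56 with Hsph1, -0.47 with Dnajb1, 0.51 with Hsp90aa1 and 0.57 with Hsp90ab1. Relative to its mean over the libraries, Hspa1a stood at 0.85 log2 CPM in Glis2+/+ replicate 3 and at 1.16 in Glis2-/- replicate 2, whereas Dnaja1 stood at 0.13 and 0.14 and Hspa8 at 0.18 and 0.10. Other members differed in direction in these libraries, with Hspb8 at -0.57 in the former and Hsph1 at -0.32 in the latter.

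**Figure D4:**
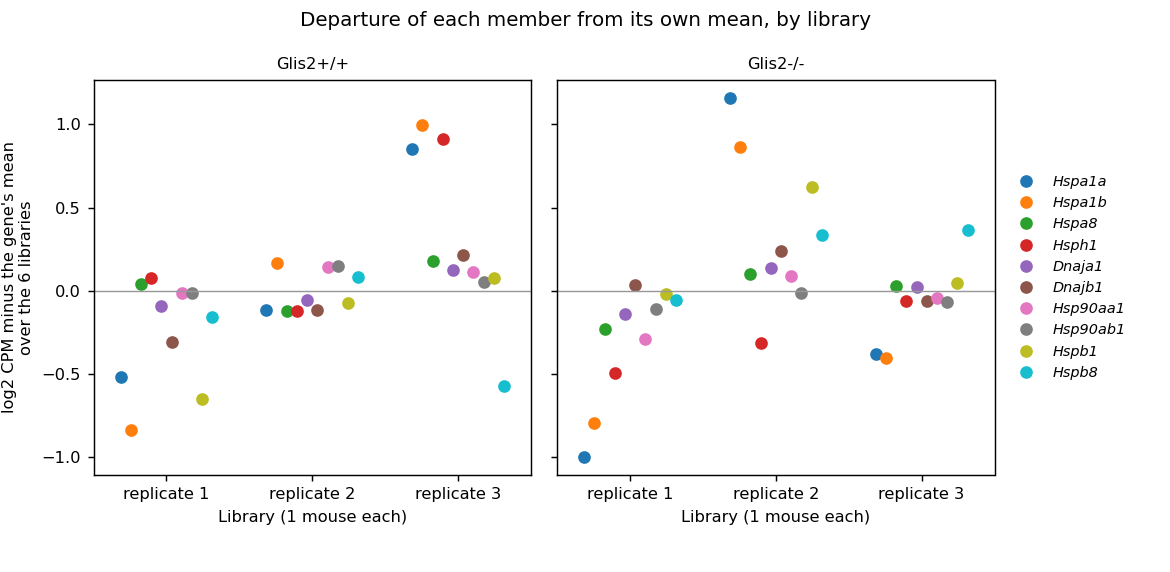
Log2 CPM of each member minus its own mean over the 6 libraries, for each library (1 mouse each). Hspa1a and Hspa1b are highest in Glis2+/+ replicate 3 and Glis2-/- replicate 2 and lowest in replicate 1 of either genotype, Hsph1 stands at 0.91 in Glis2+/+ replicate 3 only, and Hspb8 is lowest there.

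The other genes of the chaperone network were followed by lists, and none of their members passed the test in either direction in edgeR or DESeq2. The heat shock factor gene Hsf1 had a log2 fold change of 0.03 (SE 0.12) and Hsf2 of 0.18 (SE 0.24). Hsf1 had 52.8 to 56.1 CPM in Glis2+/+ and 50.5 to 63.1 CPM in Glis2-/- libraries, and it was not highest where Hspa1a was. Among 8 other HSP70 and HSP110 genes, 3 had a log2 fold change above 0 and 5 below, with a median of -0.12 that was -0.05 without Glis2+/+ replicate 3 and -0.29 with log2(TPM + 0.1). The mitochondrial HSP70 gene Hspa9 had 299, 339 and 349 CPM in Glis2+/+ and 282, 283 and 276 CPM in Glis2-/- libraries, without overlap, with a log2 fold change of -0.23 (SE 0.09, edgeR adjusted p = 0.906), and Hspa2 had 0.08. Among 11 other HSP40 genes, 5 were above 0 and 6 below, between -0.19 for Dnajb12 and 0.19, and Dnaja4 had 0.16. Their median was -0.03, and it turned to 0.05 without Glis2+/+ replicate 3, with 7 of 11 above 0, and was -0.17 with log2(TPM + 0.1).

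Of 5 other small heat shock genes, 4 passed the filter on low counts, with 1 above 0 and 3 below and a median of -0.48. That median lay between -0.84 without Glis2+/+ replicate 2 and -0.08 without Glis2+/+ replicate 1, and 2 of the 4 genes had fewer than 100 counts in every library. Cryab, the gene of αB-crystallin, had 21.5, 11.9 and 20.5 CPM in Glis2+/+ and 13.5, 11.3 and 12.97 CPM in Glis2-/- libraries, with a log2 fold change of -0.52 (SE 0.25, edgeR adjusted p = 0.906), and Hspb6 had 0.25. Of 19 co-chaperones of HSP70 and HSP90, 7 were above 0 and 12 below, with a median of -0.11 that was -0.04 without Glis2+/+ replicate 2, -0.05 without Glis2+/+ replicate 3, -0.07 without Glis2-/- replicate 1, -0.06 without Glis2-/- replicate 2 and -0.24 with log2(TPM + 0.1). Ptges3, the gene of the HSP90 co-chaperone p23, had 177, 173 and 164 CPM in Glis2+/+ and 142, 143 and 138 CPM in Glis2-/- libraries, without overlap and with a log2 fold change of -0.28 (SE 0.09, edgeR adjusted p = 0.906). Chordc1, the gene of another HSP90 partner, had 31.3, 25.2 and 30.2 CPM in Glis2+/+ and 40.0, 37.5 and 33.9 CPM in Glis2-/- libraries. It was also without overlap, with Glis2-/- higher, and had a log2 fold change of 0.36 (SE 0.14, edgeR adjusted p = 0.906). Of all genes tested, 11.7% did not overlap.

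**Figure D5:**
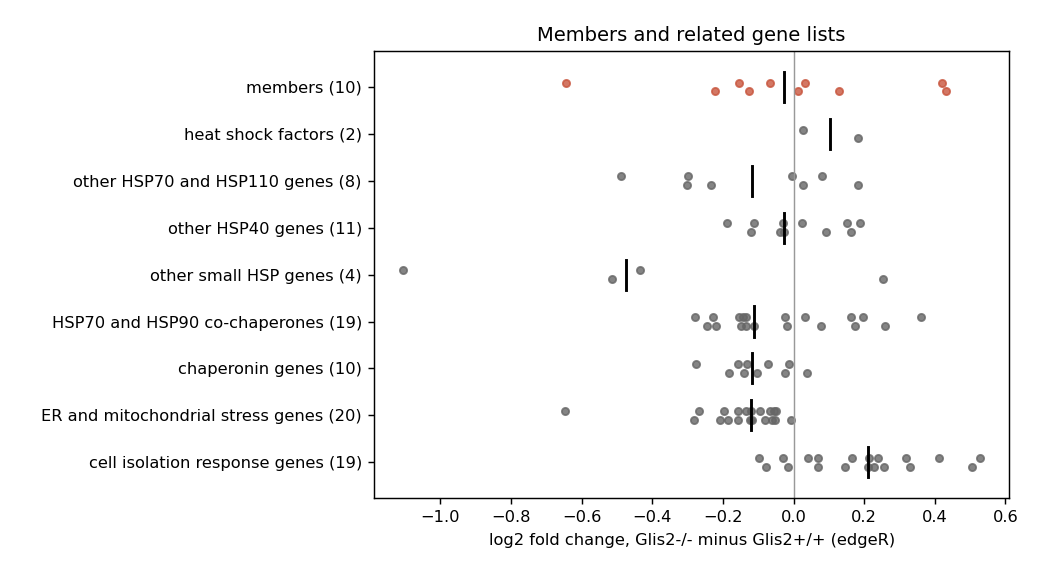
Log2 fold change (Glis2-/- minus Glis2+/+, edgeR) of each tested gene of the members (red) and of 8 related lists (grey), with a bar at the median and the number of genes in brackets. The 20 endoplasmic reticulum and mitochondrial stress genes all lie below 0 and the cell isolation response genes mostly above, with no gene past the test.

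Of 20 chaperones and other genes of the stress responses of the endoplasmic reticulum and mitochondria, all 20 had a log2 fold change below 0, with a median of -0.12, where 48.4% of all genes tested lay below 0. None passed the test, and 1 of the 20 had an unadjusted p of at most 0.05 in edgeR, near the 5.32% of all genes tested. This was Hsp90b1, the HSP90 of the endoplasmic reticulum, with 1075, 1029 and 1126 CPM in Glis2+/+ and 921, 799 and 961 CPM in Glis2-/- libraries, without overlap and with a log2 fold change of -0.27 (SE 0.09, edgeR adjusted p = 0.906). The count below 0 was 16 to 20 over 14 alternatives and lowest without Glis2+/+ replicate 3, where the median was -0.07. The median was -0.20 without Glis2-/- replicate 3 and -0.31 with log2(TPM + 0.1). Of 10 chaperonin genes, 8 of the cytosolic complex and 2 of mitochondria, 9 lay below 0, with a median of -0.12 that was -0.07 without Glis2+/+ replicate 2 and -0.29 with log2(TPM + 0.1). Hspd1, the mitochondrial HSP60 gene, had -0.27 (SE 0.10) and its partner Hspe1 had 0.04, each without passing the test.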

How the data were processed

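Per the labels and the study's methods, the authors estimated counts with Salmon 1.2.1 on an mm10 transcriptome with the genome as decoy, and tximport gave estimated counts and TPM values per gene. The deposited estimated counts had been rounded and not normalized, and TPM was deposited as log2(TPM + 1). Of 54418 identifiers, 54166 were matched to GENCODE M21 (GRCm38). Counts were tested with edgeR 4.0.16 (R 4.3.3; filterByExpr, TMM, quasi-likelihood test, Benjamini-Hochberg adjustment over 21236 genes), called at an adjusted p up to 0.05 with a log2 fold change of 0.58 or more in size. The tests set the difference between genotypes against the spread between libraries of 1 mouse each, in which mouse and handling are mixed. The functions were tested on simulated data. Alternatives used DESeq2 1.42.0 with apeglm 1.24.0 (single values unshrunk) and limma 3.58.1. Salmon shares reads between look-alike genes, so counts and TPM were also summed with genes that share at least 10% of a member's 40-base windows, which was chosen after seeing the data, as was the sum of macrophage markers without Ptprc. The largest TPM value held 83.0% to 85.7% of a library, so TPM was rescaled to protein-coding genes.

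The members and lists were chosen with earlier results of these data known. Named besides the members are Glis2, the genes of each pathway list with the smallest p in each direction, and the genes whose level over the libraries was most and least like the mean z-score of the members. Hsf1, Krt14, Krt8, Ptprc, Adgre1, Hsp25-ps1, Smu1 and the Gm pseudogenes, and in the last section Fos, Btg2 and Klf4, were named after their values were seen. Other experiments of the study were not analysed here.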

Additional observations from a re-analysis of the deposited data

How the results depend on the processing

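The count of members past both thresholds was 0 in 15 of 15 alternatives. The count over all genes was 0 in edgeR (1130 at an unadjusted p of at most 0.05), 40 without a filter on low counts, 45 with DESeq2 and apeglm, and 1 with log2(TPM + 0.1) in limma. With log2(TPM + 1) and log2(TPM + 0.1) in limma the median log2 fold change of the members was -0.25 in both, beside a shift of the median of all genes to -0.06 and -0.14, and those of Hspa1a (-0.29 and -0.32), Dnaja1 (-0.19 in both) and Dnajb1 (-0.033 and -0.035) changed direction. The cause was not tested. Dnaja1 also changed to -0.0032 with at least 10 counts in every sample and to -0.065 when summed with its look-alike, and Hspa1a to -0.13 when summed with Hspa1b. With the replicate number as a block, Hspa1a changed to -0.16. The block changed no call of a member. The labels do not say whether the numbers pair the mice. Same-numbered deviations correlated with r of -0.02, 0.17 and 0.02, which cannot settle it, since a shared day or litter could touch few genes. Without 1 library, the median of the members lay between -0.15 and 0.17, the latter without Glis2+/+ replicate 3, the summed pair between -0.87 and 0.40, Hspa1a between -0.85 and 0.53, Hspa1b between -0.89 and 0.32, Hspa8 between -0.14 and 0.022, Dnaja1 between -0.059 and 0.083, and Dnajb1 between -0.0034 and 0.28. Hspb1, Hspb8, Hsph1, Hsp90aa1 and Hsp90ab1 kept their direction in every alternative run, though not their size. Without 1 library, Hsp90aa1 lay between -0.25 and -0.062 and Hsp90ab1 between -0.18 and -0.080, and with log2(TPM + 1) Hsp90ab1 was -0.29, Hsp90aa1 -0.25 and Hspb8 0.18. Each member had at least 298 counts in each library. With 3 mice per genotype, differences as large as the ends of the printed intervals remain possible.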

Other observations

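Genes that respond early when cells are isolated from tissue were also followed, since glands of both genotypes were digested in the same way. Of 19 such genes, 15 had a log2 fold change above 0 and 4 below, with a median of 0.21, and 0 passed the test in edgeR or DESeq2, while 3 had an unadjusted p of at most 0.05 in edgeR. Such a p was found for 5.32% of the genes tested, and 48.4% of them lay below 0 in log2 fold change. Jun, a subunit of the AP-1 transcription factor, had 1880, 1780 and 1730 CPM in Glis2+/+ and 2506, 3157 and 2111 CPM in Glis2-/- libraries, without overlap, with a log2 fold change of 0.53 (SE 0.14, edgeR adjusted p = 0.906). Fos, its partner, had 0.41 (SE 0.17), Btg2, an antiproliferative early response gene, had 0.51 (SE 0.15), and Klf6 had -0.10 (SE 0.15). With either offset of log2 TPM in limma, 10 genes lay above 0 and the median was 0.029. Without Glis2-/- replicate 2 the median was 0.081 and without Glis2+/+ replicate 1 it was 0.096, each with 13 genes above 0. Glis2-/- replicate 2, which was highest for Hspa1a, was also highest for Jun, but Glis2+/+ replicate 3, which was second for Hspa1a, had the lowest level of Jun among the 6 libraries. Klf4, another gene of the list, was highest in the same libraries as Hspa1a, with 289 CPM in Glis2+/+ replicate 3 and 285 CPM in Glis2-/- replicate 2. Over the 6 libraries, which share TMM scaling, the mean log2 CPM of the list had a Pearson's r of 0.44 with the mean z-score of the members, given as a description.

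Among 5601 other genes with a mean of at least 5 log2 CPM, those most like the members over the 6 libraries were Zhx1, Wdr43, Shroom2, Armcx3 and Wee1, with Pearson's r from 0.96 to 0.99 with the mean z-score of the members. Those least like them were Drap1, Cand2 and Bcorl1, with r of -0.98, -0.96 and -0.95. Zhx1, which encodes a zinc finger and homeobox protein, had 49.5, 57.8 and 72.8 CPM in Glis2+/+ and 45.6, 70.6 and 54.4 CPM in Glis2-/- libraries. These were the extremes of many genes over few libraries and are given as a description.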
